A study of Mus musculus with 6 samples.

Results

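The dystrophin-glycoprotein complex was followed through the 8 genes Dmd, Utrn, Dag1, Sgca, Sgcb, Sgcd, Sgce and Dtna, which were taken by name from a fixed list and joined to the deposited table by their Ensembl identifiers. All 8 had a value in 6 of 6 libraries, among 23073 genes with a value. RNA of embryonic mouse diaphragm, the muscle used for breathing, was sequenced at E14.75 in 2 libraries of each of 3 groups. The erbB3 wild-type libraries (numbered 5 and 6 in the labels) and the erbB3 mutant libraries (1 and 2) held RNA of whole muscle. The mutant lacks the neuregulin receptor ErbB3 in every cell, and its muscle was labelled as lacking Schwann cells, the glia of peripheral nerve. The Wnt1-Ribotag libraries (1 and 2) came from embryos that were wild-type for erbB3 and carried both Wnt1-Cre and the Ribotag allele. In these embryos the Wnt1 promoter drives Cre in the neural crest, the source of Schwann cells, and Cre adds a hemagglutinin tag to a ribosomal protein. Their RNA was pulled down with the tagged ribosomes of 4 pooled Cre-positive diaphragms per library. By the study's methods the diaphragms of a litter were homogenized together before genotyping, so that each lysate also held muscle of littermates without Cre, whose ribosomes carry no tag. These libraries were made from far less RNA, so that they differed from the mutant libraries in genotype and in preparation, which cannot be told apart. The labels call the libraries biological replicates without naming embryos or litters, so that p-values measure only the spread between these libraries.

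The complex links the actin cytoskeleton of the muscle fiber, through the cell membrane, to the basal lamina outside. Dystrophin (Dmd) binds actin at its front end and dystroglycan near its tail, and utrophin (Utrn), its homologue, does the same in embryonic muscle and at the neuromuscular junction. Dystroglycan (Dag1) is cut into a part in the membrane and a part outside, whose sugar chains hold laminin and agrin. The sarcoglycans (Sgca, Sgcb, Sgcd and, in place of Sgca, Sgce) are membrane proteins that brace dystroglycan, and α-dystrobrevin (Dtna) binds dystrophin from the inside and carries the syntrophins, adaptors for signaling proteins. Loss of dystrophin or of the sarcoglycans Sgca, Sgcb or Sgcd causes muscular dystrophy, and dystroglycan serves laminin binding in Schwann cells too.

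The values were RPKM, read numbers divided by gene length and by the mapped reads of the library, so that levels can be compared between genes per length. The gene lengths used are not given, and the order of genes can depend on them. For Dtna all annotated exons together cover 16930 bases and the longest transcript 6295, while for Sgca these are 1735 and 1724. Depth was between 100178863 and 230216660 mapped reads per library, and between 17205 and 20349 genes lay above the floor, the small value given to a gene without reads. The members lay far above it. With the longest annotated transcript as the length, a member rested on between 1226 and 54942 reads per library, for which counting error was at most 2.86%. The spread between libraries, rather than depth, therefore set the precision of the comparisons. The targeted gene, Erbb3, did not separate the genotypes by its level. Its RPKM was 16.5 and 15.8 in the wild-type and 21.5 and 11.9 in the mutant libraries, and the genotypes are those of the labels. Skeletal muscle markers were abundant in all 6 libraries, with a summed RPKM of 14 markers between 2897 and 6014. The level of these markers in the Wnt1-Ribotag libraries (3202 and 2897) was close to that in whole wild-type muscle (3603 and 2938), although Schwann cell markers were higher there, at a summed RPKM of 187.1 and 402.3 against 63.35 and 55.73. RNA of muscle fibers was thus present in the pulled-down RNA, and values of the members there were not those of Schwann cells alone. Whether the tagged ribosomes had bound it was not tested. In such mixed RNA, fewer cells of a type and less RNA per cell cannot be told apart.

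Dmd lies on the forward strand of chrX:82948870-85206141 (GRCm38), the largest span among the members. Its gene-level RPKM joins transcripts of very different size. The protein-coding transcript Dmd-203 has 14910 exon bases, whereas Dmd-201 and Dmd-202 begin far downstream, at base 85048413 of the X chromosome, and have 4438 and 1858. The full-length form is the dystrophin of muscle, and the short forms are made in many tissues. RPKM of the gene cannot separate them, and for this reason the DNA before both starts is shown, with that of Sgca, which is known for its restriction to striated muscle. Each run is the 250 bases before a start, on the strand of the gene, from RefSeq on GRCm38.p6. Capitals mark matches on either strand to an E box (CANNTG, bound by myogenic factors), a GC box (GGGCGG, bound by Sp1) or a CArG box (bound by serum response factor). A MEF2 motif was also searched, and no motif overlapped one of another kind in these windows. The GC boxes at 18 and 14 bases before the RefSeq start near the short transcripts overlap each other.

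Dmd, first start, chrX:82948620-82948869, forward strand: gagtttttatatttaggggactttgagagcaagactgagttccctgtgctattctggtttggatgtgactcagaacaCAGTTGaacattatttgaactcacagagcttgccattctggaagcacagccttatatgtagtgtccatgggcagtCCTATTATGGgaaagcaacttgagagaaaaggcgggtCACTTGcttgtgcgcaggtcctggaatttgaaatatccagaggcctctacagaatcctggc
Dmd, start before the short transcripts, chrX:85048045-85048294, forward strand: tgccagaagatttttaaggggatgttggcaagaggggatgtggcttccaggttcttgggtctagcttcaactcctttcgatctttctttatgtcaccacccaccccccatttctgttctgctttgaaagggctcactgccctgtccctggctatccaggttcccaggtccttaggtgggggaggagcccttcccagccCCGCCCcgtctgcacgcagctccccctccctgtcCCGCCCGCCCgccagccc
Sgca, chr11:94976328-94976577, reverse strand: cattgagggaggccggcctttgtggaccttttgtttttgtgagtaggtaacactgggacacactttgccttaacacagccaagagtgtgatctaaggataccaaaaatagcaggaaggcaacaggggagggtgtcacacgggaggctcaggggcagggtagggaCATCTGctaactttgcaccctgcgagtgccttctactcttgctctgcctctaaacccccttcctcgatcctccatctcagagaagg

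The first Dmd window held 2 E boxes and 1 CArG box, and the window before the short transcripts held 3 GC boxes and 0 E boxes. The Sgca window held 1 E box. Of 32851 RefSeq promoters of the same length, 66.2% held an E box, 32.7% a GC box, 1.47% a CArG box and 0.508% a MEF2 motif, so that E and GC boxes are common in any window. A match is a run of letters and not a site of binding. Of the 8 members, 6 had an entry in the promoter table.

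Dag1, on the reverse strand of chr9:108204634-108263958, had the highest level of the members per length, with a mean RPKM of 36.8 ± 10.7 (SD, 6 libraries). Sgcb (reverse strand of chr5:73632749-73647790) followed at 19.2 ± 5.49 RPKM, and Sgce (reverse strand of chr6:4674350-4747207) at 19.0 ± 4.28 RPKM. The order of these neighbours turned with the preparation, since Sgce was above Sgcb in 4 of 4 whole-muscle libraries and Sgcb above Sgce in both Wnt1-Ribotag libraries. Over all 6 libraries their means differed by less than their spread. A clear step separated Sgce from Sgca (reverse strand of chr11:94962791-94976327), with a mean of 7.82 ± 1.82 RPKM and no overlap of their ranges. Utrn (reverse strand of chr10:12382188-12869365) had a mean of 5.42 ± 0.971 RPKM, below Sgca in 5 of 6 libraries. Sgcd (reverse strand of chr11:46896253-47988969) had 3.23 ± 0.768 RPKM and Dtna (forward strand of chr18:23415135-23659715) 2.75 ± 0.652 RPKM, with Sgcd higher in 5 of 6 libraries. Dmd had the lowest level per length, 2.16 ± 0.419 RPKM, below Dtna in 6 of 6 libraries. At this age the utrophin transcript thus exceeded the dystrophin transcript per length, and the ε-sarcoglycan transcript the α-sarcoglycan transcript, in each of the 6 libraries. The highest library of a member was between 1.59 and 2.18 times its lowest.

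**Figure D1:**
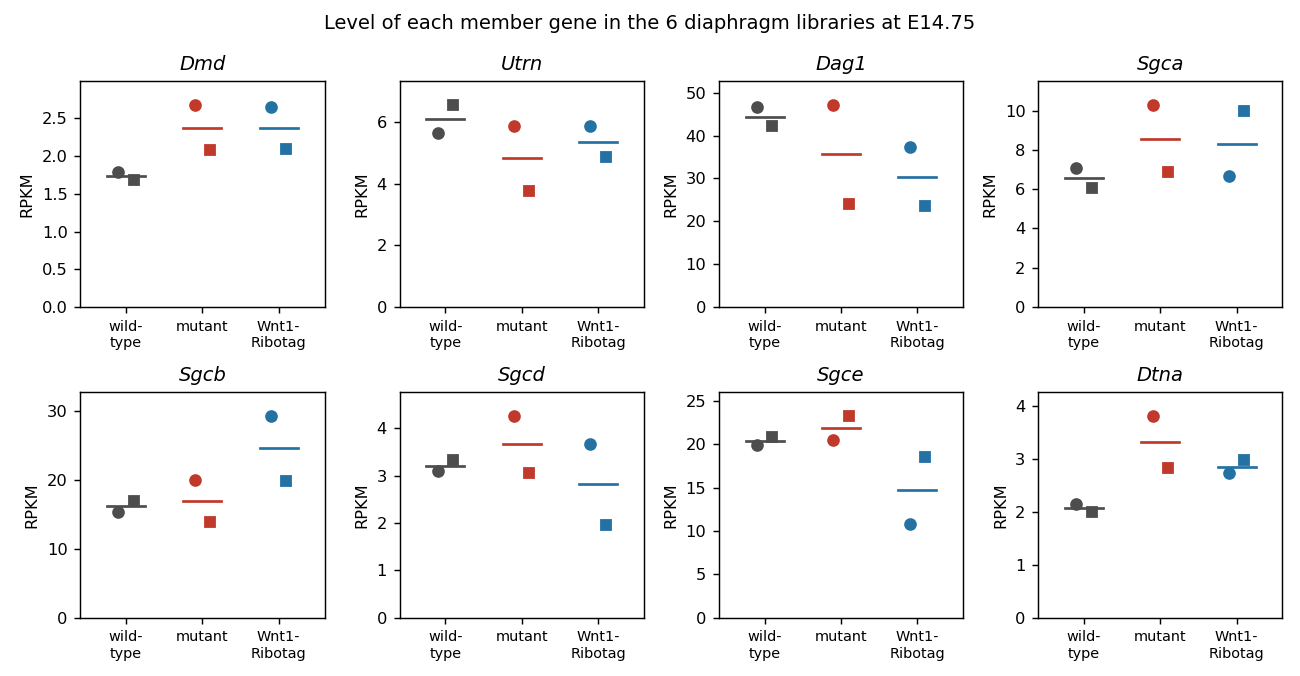
RPKM of the 8 members in each library (y axis from 0, linear, a scale of its own for each gene), with circles for the lower and squares for the higher library number of a group and bars for group means. Dmd and Dtna lie higher in both mutant than in both wild-type libraries, while Dag1 runs from 47.1 in mutant 1 to 24.1 in mutant 2.

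The mutant and wild-type libraries address what the loss of ErbB3, and with it of Schwann cells, goes with in muscle. Among the members, the largest difference was in Dtna, the adaptor on the inner side of the membrane. Its RPKM was 2.15 and 1.99 in the wild-type and 3.81 and 2.84 in the mutant libraries. The groups did not overlap, and the mean was 1.61 times higher in the mutant. On the scale of log2(RPKM + 0.5) the difference was 0.56 (SE 0.18, 95% confidence interval 0.15 to 0.97), with an unadjusted p of 0.0134 and an adjusted p of 0.340 from limma over all genes tested. Dmd was at 1.79 and 1.69 RPKM in the wild-type and at 2.67 and 2.08 RPKM in the mutant libraries. Again the groups did not overlap, and the log2 difference was 0.36 (SE 0.17, adjusted p = 0.430 from limma). These are the 2 of 8 members that lay higher without overlap, against 12.7% of all genes tested, and 0 members lay lower without overlap, against 37.4%.

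None of the 8 members passed an adjusted p of 0.05 in limma, and 1 (Dtna) had an unadjusted p under 0.05. Of the 14052 genes tested, 24 (0.171%) passed the first and 1691 (12.0%) the second. Leaving out the trend of spread in limma also called 0 members. The median log2 difference of the members was 0.12, with 6 above and 2 below 0, whereas that of all genes tested was -0.10, with 4638 above and 9414 below 0. Scaling the libraries by the median of their gene ratios moved the median of all genes to 0.0042 and that of the members to 0.24, with 6 members above and 2 below 0 as before. The mutant libraries set this balance. Without mutant 1 the median of the members was 0.0022, with 4 above and 4 below 0, and without mutant 2 it was 0.33, with 7 above and 1 below 0.

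Utrn was at 5.64 and 6.54 RPKM in the wild-type and at 5.85 and 3.77 in the mutant libraries. Only mutant 2 was low, and the groups overlapped, with a log2 difference of -0.33 (SE 0.21, adjusted p = 0.491 from limma). Dag1 was at 46.7 and 42.2 RPKM in the wild-type and at 47.1 and 24.1 in the mutant libraries. Mutant 1 was thus at the wild-type level and mutant 2 near a value seen also in Wnt1-Ribotag 2, and the log2 difference was -0.39 (SE 0.27, adjusted p = 0.523 from limma).

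Among the sarcoglycans, Sgca was at 7.10 and 6.04 RPKM in the wild-type and at 10.3 and 6.86 RPKM in the mutant libraries. The wild-type range reached into that of the mutant, and the log2 difference was 0.34 (SE 0.20, 95% confidence interval -0.13 to 0.80). Sgcb was at 15.4 and 16.9 RPKM in the wild-type and at 20.0 and 13.9 RPKM in the mutant libraries. Its wild-type values lay between those of the mutant, and the interval of the log2 difference ran from -0.38 to 0.47. Sgcd, with a mean of 3.21 ± 0.162 RPKM in wild-type and 3.66 ± 0.844 RPKM in mutant muscle (SD, n = 2 each), likewise overlapped, with an interval from -0.27 to 0.57. Sgce had the smallest standard error of the members (0.13), at 19.9 and 20.9 RPKM in the wild-type and 20.5 and 23.3 RPKM in the mutant libraries. Its log2 difference was 0.10, with an interval from -0.21 to 0.41.

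The mutant libraries differed from each other across the complex. In mutant 2, 7 of 8 members were lower than in mutant 1, with a median log2 difference of -0.46, against -0.073 over all genes. Dag1 had the largest difference, -0.95 on the log2 scale, and Sgce was the exception, at 0.18. Skeletal muscle markers moved in the same direction between these libraries, with 14 of 14 lower in mutant 2 and a median log2 difference of -0.83. Their summed RPKM was 6014 in mutant 1 and 4058 in mutant 2, and 3603 and 2938 in the wild-type libraries. Without Mylpf it was 3690 and 1989 in the mutant and 2310 and 1943 in the wild-type libraries, so that only mutant 1 then lay above both. No marker of the list was at the floor, and Mylpf and Acta1, the genes with the highest mean, encode a fast myosin light chain and skeletal actin. In mutant vs. wild-type muscle, 5 of the 14 markers lay higher without overlap, against 12.7% of all genes, 0 lay lower, against 37.4%, and 0 of 14 passed the adjusted threshold in limma. Their median log2 difference was 0.18, with 10 above and 4 below 0, but without mutant 1 it was -0.27, with 5 above and 9 below 0, and without mutant 2 it was 0.58, with 14 above 0. Liver markers, which a dissected diaphragm can carry, had a summed RPKM of 510.6 and 158.9 in the wild-type and 20.51 and 12.43 in the mutant libraries. The part of muscle and liver content in the differences of Dtna and Dmd was not tested. The wild-type libraries were closer to each other, with 4 members higher and 4 lower in wild-type 6 and a median log2 difference of 0.0018.

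**Figure D2:**
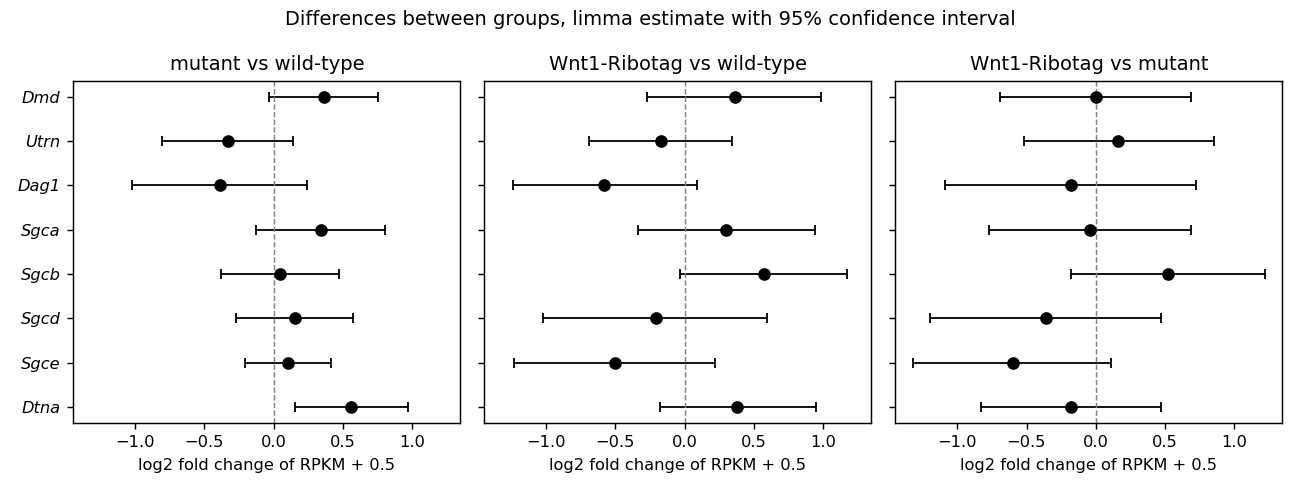
Differences of the 8 members in the 3 comparisons, as limma's log2 fold change of RPKM + 0.5 (x axis, points) with its 95% confidence interval (bars), and a dashed line at 0. The interval of Dtna in mutant vs. wild-type muscle, from 0.15 to 0.97, is the only one of the 24 that does not reach 0, and it is not adjusted for the number of genes.

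Dmd and Utrn have long transcripts, and were set beside other genes of this kind. Among 755 genes with an annotated transcript of at least 8000 bases, the median log2 difference in mutant vs. wild-type muscle was -0.22, and 652 lay below 0. Dmd went the other way, with a log2 difference above that of 750 of these genes and below that of 4. Utrn lay within the group, with 531 of the genes above it. In 22 of the 755 genes the mutant libraries were higher and in 365 lower without overlap. In Wnt1-Ribotag vs. wild-type muscle, where the log2 difference of Dmd was 0.36 as well, 149 of 775 long genes lay above Dmd and 625 below.

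The ratio of homologues within a library does not depend on the scaling between libraries. Utrn over Dmd was 3.16 and 3.88 in the wild-type, 2.19 and 1.81 in the mutant and 2.21 and 2.31 in the Wnt1-Ribotag libraries. The wild-type ratios were the highest, and neither other group overlapped them. On the log2 scale the mean ratio was 1.81 ± 0.21 in wild-type, 0.99 ± 0.19 in mutant and 1.17 ± 0.046 in Wnt1-Ribotag muscle (SD, n = 2 each). The difference was -0.81 in mutant vs. wild-type and -0.63 in Wnt1-Ribotag vs. wild-type muscle, each with a two-sided exact permutation p of 0.33, the smallest that 2 libraries against 2 can give. The wild-type libraries are shared by both differences. Sgce over Sgca was 2.80 and 3.45 in the wild-type and 2.00 and 3.39 in the mutant libraries, which overlapped, with a log2 difference of -0.26 (exact permutation p = 0.67) that ran from -0.64 to 0.13 when 1 library was left out. In the Wnt1-Ribotag libraries it was 1.63 and 1.87, lower than in both other groups without overlap, with a log2 difference of -0.84 from wild-type and -0.58 from mutant muscle (exact permutation p = 0.33 each). With 1 library left out, the first ran from -0.99 to -0.69 and the second from -0.96 to -0.20.

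**Figure D3:**
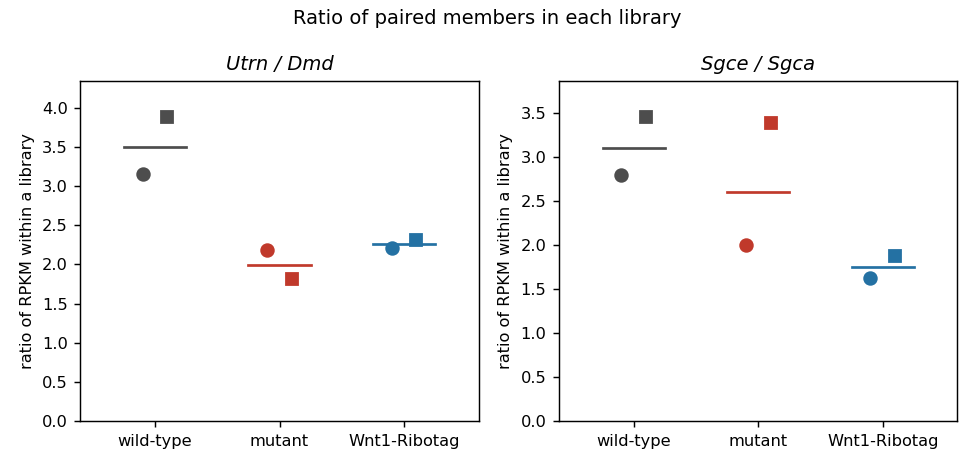
Ratio of RPKM within each library (y axis from 0, linear) of Utrn over Dmd and of Sgce over Sgca, with circles for the lower and squares for the higher library number and bars for group means. Utrn over Dmd is above 3 in both wild-type libraries and at most 2.31 in the other 4 libraries.

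The Wnt1-Ribotag libraries were compared with wild-type muscle, which differs in preparation, and with the mutant, which differs in erbB3 genotype as well. The 3 comparisons share libraries in pairs and are not independent. Against wild-type muscle, 0 of 8 members passed an adjusted p of 0.05 in limma and 0 had an unadjusted p under 0.05, while of 14418 genes tested 1 (0.00694%) passed the first and 2813 (19.5%) the second. Sgcb was at 29.3 and 19.9 RPKM, above 15.4 and 16.9 in the wild-type libraries. The mean was 1.52 times higher, and the log2 difference was 0.57 (SE 0.24, adjusted p = 0.278 from limma). Sgce was at 10.8 and 18.6 RPKM, below 19.9 and 20.9 in the wild-type libraries, with a log2 difference of -0.50 (SE 0.28, adjusted p = 0.385 from limma). Wnt1-Ribotag 1 lay far below Wnt1-Ribotag 2. Dag1 was at 37.3 and 23.5 RPKM, also below both wild-type libraries, with a log2 difference of -0.58 (SE 0.26, adjusted p = 0.305 from limma).

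Dmd, at 2.65 and 2.10 RPKM, and Dtna, at 2.74 and 2.97 RPKM, lay above both wild-type libraries, with log2 differences of 0.36 (adjusted p = 0.465 from limma) and 0.38 (adjusted p = 0.390). Together with Sgcb, 3 of 8 members were higher without overlap, against 23.3% of all genes, and 2 of 8 were lower, against 31.0%. Utrn (5.85 and 4.85 RPKM), Sgca (6.66 and 9.97 RPKM) and Sgcd (3.67 and 1.95 RPKM) overlapped the wild-type libraries. The median log2 difference of the 8 members was 0.062 with 4 above and 4 below 0, and that of all genes tested was -0.051. The members did not move as a block between the Wnt1-Ribotag libraries. In Wnt1-Ribotag 2, Sgce and Sgca were higher, by 0.75 and 0.55 on the log2 scale, while the log2 difference of Sgcd was -0.77, that of Dag1 -0.66 and that of Sgcb -0.55. The same library held more RNA of neuron markers, with a summed RPKM of 325.0 against 79.21, and of Schwann cell markers, at 402.3 against 187.1. Their part in the members' values was not tested. Each Wnt1-Ribotag library decided calls of its own. With Wnt1-Ribotag 1 left out, Dag1, Sgca and Sgcd passed (adjusted p = 0.00874, 0.0432 and 0.0422 from limma, 3 of 8 members beside 4482 of all genes), and with Wnt1-Ribotag 2 left out, Sgcb and Sgce (0.00678 and 0.00553, beside 5965 of all genes), in fits where the remaining library is assumed to vary like the wild-type pair.

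Against the mutant, 0 of 8 members passed an adjusted p of 0.05 in limma and 0 had an unadjusted p under 0.05, while 171 (1.19%) and 2758 (19.3%) of 14325 genes tested did. Sgce was the only member without overlap, lower in the Wnt1-Ribotag libraries, against 24.4% of all genes that were lower and 29.7% that were higher in this way. It was at 10.8 and 18.6 RPKM against 20.5 and 23.3 RPKM in the mutant, with a log2 difference of -0.60 (SE 0.30, adjusted p = 0.320 from limma). The log2 difference of Sgcb was 0.52 (SE 0.29, 95% confidence interval -0.18 to 1.22). Dmd had nearly the same mean in both groups, 2.38 RPKM, and the interval of its log2 difference, from -0.69 to 0.69, leaves room for a change in either direction. With Wnt1-Ribotag 2 left out Sgce alone passed (adjusted p = 0.0134 from limma), beside 3672 of all genes. The other 5 members had log2 differences between -0.36 (Sgcd) and 0.16 (Utrn).

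Further subunits of the complex were taken from a list of 13 genes, of which 8 passed the filter on low values. In mutant vs. wild-type muscle 4 were above and 4 below 0, with a median log2 difference of -0.035, and 0 of 8 passed the adjusted threshold in limma. Cav3, caveolin of muscle, which binds dystroglycan, was at 43.5 and 38.3 RPKM in the wild-type, 78.2 and 66.8 in the mutant and 32.8 and 39.7 in the Wnt1-Ribotag libraries. Its log2 difference was 0.82 in mutant vs. wild-type muscle (SE 0.15, adjusted p = 0.105 from limma). For Cav3, the difference of the Wnt1-Ribotag libraries from the mutant was -0.99 (adjusted p = 0.109 from limma). Mylpf, the muscle marker with the highest mean, was higher in the mutant than in the other 4 libraries, while most of the 14 markers overlapped between mutant and wild-type muscle, and the part of muscle content in the level of Cav3 was not tested. The difference of Cav3 from the mutant passed in 2 alternatives with all libraries kept, at an adjusted p of 0.0365 with all 6 libraries in a limma fit and of 0.0369 with a replicate block, and also without Wnt1-Ribotag 1 (0.0296) or Wnt1-Ribotag 2 (0.00867).

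Sspn, sarcospan, a membrane protein bound to the sarcoglycans, was at 9.15 and 9.09 RPKM in the wild-type, 11.4 and 6.15 in the mutant and 28.8 and 12.5 in the Wnt1-Ribotag libraries. It lay higher in the latter than in both other groups, with log2 differences of 1.02 from wild-type (adjusted p = 0.256 from limma) and 1.14 from mutant muscle (adjusted p = 0.242). Wnt1-Ribotag 1 set the size of both. With 1 library left out, the log2 difference ran from 0.44 to 1.60 against wild-type and from 0.55 to 1.72 against mutant muscle, the lowest values being those without Wnt1-Ribotag 1. The difference from the mutant passed with a replicate block (adjusted p = 0.0362 from limma) and without Wnt1-Ribotag 2 (0.00841), and missed without Wnt1-Ribotag 1 (0.295). That from wild-type muscle passed without Wnt1-Ribotag 2 alone (0.00161). Drp2, a short relative of dystrophin known from Schwann cells, where it binds periaxin, was at 3.35 and 3.99 RPKM in the wild-type, 3.16 and 2.86 in the mutant and 5.30 and 4.45 in the Wnt1-Ribotag libraries. The 3 groups of Drp2 did not overlap, and the log2 difference was -0.24 in mutant vs. wild-type muscle (adjusted p = 0.505 from limma) and 0.61 in Wnt1-Ribotag vs. mutant muscle (adjusted p = 0.254). The groups of Drp2 had the same order as those of the Schwann cell markers, whose summed RPKM was 49.67 and 28.15 in the mutant libraries, but within the wild-type and the Wnt1-Ribotag pair the library with more Drp2 had the lower marker sum, and the part of Schwann cell RNA in its levels was not tested. Sntb1, a syntrophin, had a mean RPKM of 7.90 in wild-type and 8.59 in mutant muscle, with overlap. Sntb2 had the lowest log2 difference of the list in Wnt1-Ribotag vs. wild-type muscle, at -0.59 (adjusted p = 0.270 from limma), and Dtnb, β-dystrobrevin, in mutant vs. wild-type muscle, at -0.26 (adjusted p = 0.452 from limma). Nos1, the neuronal nitric oxide synthase that syntrophin holds at the membrane, stayed below the filter, between 0.160 and 0.655 RPKM. Sgcz and Dytn were at the floor in at least 1 library.

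The ligands of dystroglycan in the basal lamina lay on 1 side. Of 11 listed genes 9 passed the filter, and 9 of 9 were below 0 in mutant vs. wild-type muscle, with a median log2 difference of -0.40, against -0.10 and 67.0% of all genes tested. Of the 9, 5 lay lower without overlap, against 37.4% of all genes, and 0 passed the adjusted threshold in limma, with 4 at an unadjusted p under 0.05. Among the 755 genes with a transcript of at least 8000 bases, 652 were below 0, with a median of -0.22, and 365 lay lower without overlap. The part of transcript length in the levels of the ligands was not tested. Slit2, a guidance cue that binds dystroglycan, was at 10.3 and 14.1 RPKM in the wild-type and at 7.24 and 6.37 RPKM in the mutant libraries, a log2 difference of -0.79 (adjusted p = 0.171 from limma). Lama2, the laminin chain of the muscle basal lamina, had the smallest difference, with 6.67 and 6.10 RPKM in the wild-type, 8.06 and 4.91 RPKM in the mutant libraries and a log2 difference of -0.015. Mutant 2 decided much of this pattern. Between the mutant libraries the 9 ligands were all lower in mutant 2, with a median log2 difference of -0.64. Without mutant 2, 6 of 9 were below 0 and the median was -0.031. Connective tissue markers, 7 of 9 of them below 0 with a median of -0.17, had a summed RPKM of 3185 in mutant 1 and 2252 in mutant 2, against 3073 and 3039 in the wild-type libraries. Neuron markers were below 0 in 7 of 7 genes tested, with a median of -1.56. The part of these cells in the levels of the ligands was not tested. With scaling by the median ratio, 8 of 9 stayed below 0 and the median was -0.28.

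In Wnt1-Ribotag vs. wild-type muscle, 9 of 9 ligands were again below 0, with a median of -0.50, and 8 lay lower without overlap, against 31.0% of all genes, while 0 passed the adjusted threshold and 6 had an unadjusted p under 0.05. Without Wnt1-Ribotag 1, 6 of 9 passed (66.7%, against 31.0% of all genes), and without Wnt1-Ribotag 2, 5 of 9 (55.6%, against 41.8%). The lowest was Lama5, a laminin chain of many basal laminae, which was at 10.8 and 9.52 RPKM in the wild-type and 5.55 and 4.79 RPKM in the Wnt1-Ribotag libraries. Its log2 difference was -0.91 (adjusted p = 0.170 from limma). Egflam, pikachurin, had the smallest difference, -0.20. Connective tissue markers were also lower there, with 8 of 9 below 0, a median log2 difference of -0.81 and a summed RPKM of 2175 and 2243. Their part there was not tested either. Between the Wnt1-Ribotag and mutant libraries the ligands were split, with 4 above and 5 below 0 and a median of -0.10.

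The enzymes that build the laminin-binding sugar of dystroglycan all passed the filter (18 of 18). In mutant vs. wild-type muscle 16 were below 0, with a median log2 difference of -0.24, against 67.0% of all genes and a median of -0.10. Of the 18, 8 were lower without overlap, against 37.4% of all genes. Without mutant 2 the median was -0.10, with 14 of 18 below 0. Scaling by the median ratio left 13 of 18 below 0 and a median of -0.13, and 0 of 18 passed the adjusted threshold in limma. The lowest was Pomgnt2, which adds N-acetylglucosamine to the O-mannose of dystroglycan, with a log2 difference of -0.46 (adjusted p = 0.437 from limma), and the highest Rxylt1, the ribitol xylosyltransferase, with 0.16. Pomgnt2 was at 5.68 and 5.90 RPKM in the wild-type and at 5.31 and 3.10 RPKM in the mutant libraries. Its log2 difference ran from -0.81 to -0.12 with 1 library left out. In Wnt1-Ribotag vs. wild-type muscle the list was split, with 6 above and 12 below 0 and a median of -0.25, which was -0.055 without Wnt1-Ribotag 1 and -0.41 without Wnt1-Ribotag 2. The lowest there was Dolk, dolichol kinase, at -0.68 (adjusted p = 0.246 from limma). Against the mutant the lowest was Dpm3, a subunit of dolichol-phosphate mannose synthase, at -0.73 (adjusted p = 0.191 from limma).

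Genes of the costamere, the band of contacts between the contractile fibrils and the membrane in which dystrophin also sits, were 11 of 14 below 0 in mutant vs. wild-type muscle, with a median of -0.15, against 67.0% of all genes and a median of -0.10. Median-ratio scaling left 9 of 14 below 0 and a median of -0.032. Without mutant 2 the direction turned, with 11 of 14 above 0 and a median of 0.12. The extremes were Tln2, talin of muscle attachment sites, at -0.51 (adjusted p = 0.390 from limma), and the keratin Krt19, which binds dystrophin, at 0.26. In Wnt1-Ribotag vs. wild-type muscle 7 were above and 7 below 0, from Tln1 at -0.92 (adjusted p = 0.170) to Itga7, the laminin-binding integrin of muscle, at 0.49 (adjusted p = 0.395). Without Wnt1-Ribotag 1 it was 2 above and 12 below 0. Against the mutant 9 were above and 5 below 0, or 4 above and 10 below 0 without mutant 2, from Krt19 at -1.05 (adjusted p = 0.213) to Tln2 at 0.56. With 1 library left out, the difference from the mutant ran from -1.60 to -0.50 for Krt19 and from 0.28 to 0.83 for Tln2. With the deposited values and the settings given, 0 genes of these 4 lists passed the adjusted threshold in any of the 3 comparisons in limma. Calls appeared under alternatives. Among the 8 further subunits, Wnt1-Ribotag vs. mutant muscle gave 1 call with all 6 libraries in a fit and 2 with a replicate block. In the same fits 679 (4.74%) and 842 (5.88%) of all genes were called. With a Wnt1-Ribotag library left out, calls appeared in each of the 4 lists against wild-type muscle. Against the mutant they appeared in each list but the ligands. Many more of all genes were called in all of these fits, where the remaining library is assumed to vary like the other group. Against wild-type muscle 12.5% of the further subunits were called with either Wnt1-Ribotag library left out. Of the costamere genes 28.6% were called without Wnt1-Ribotag 1 and 21.4% without Wnt1-Ribotag 2, below the 31.0% and 41.8% of all genes. The shares were 66.7% and 55.6% for the ligands, above those of all genes, and 16.7% and 44.4% for the glycosylation enzymes, in the same order.

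**Figure D4:**
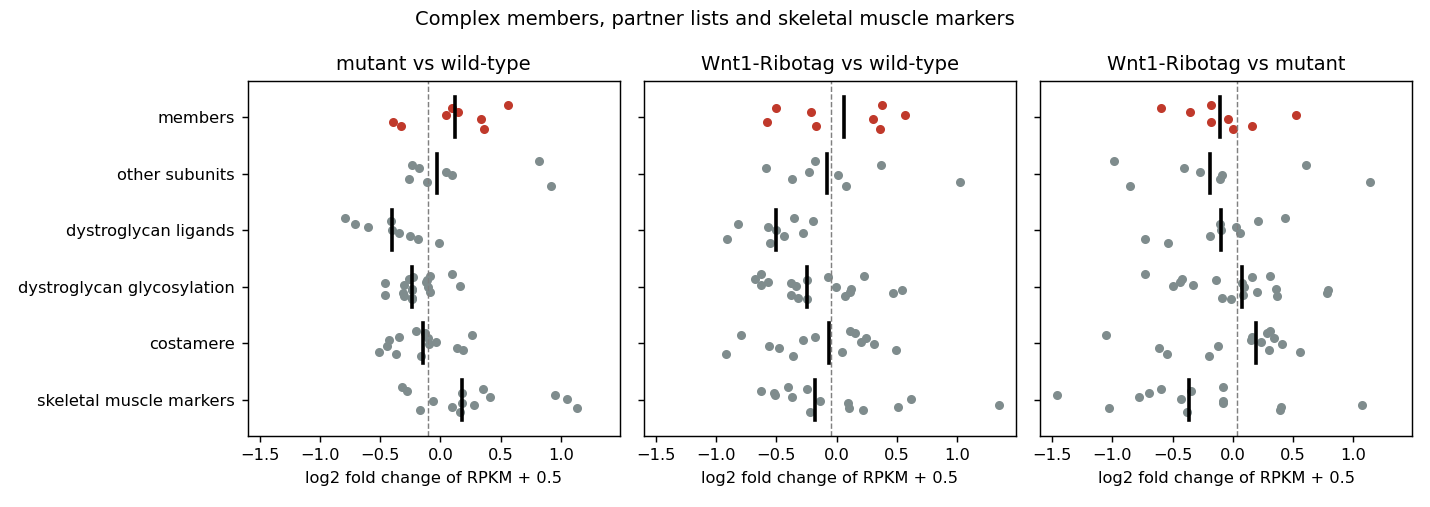
Log2 fold change of RPKM + 0.5 (x axis) in the 3 comparisons, with a point for each gene tested among the 8 members (red) and the lists of partners and muscle markers (grey), black bars for list medians and a dashed line for the median of all genes tested. The dystroglycan ligands lie below 0 in 9 of 9 genes in both comparisons with wild-type muscle, while the members lie on both sides.

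Across the 6 libraries, genes whose level on the log2 scale ran most like that of a member were sought among 14320 genes by Pearson's r, as a description over libraries that share groups and differ in depth. For Dmd they were Mettl11b (r = 0.980), Sdhaf1 (0.962) and Atp1b4 (0.962), and for Utrn Kmt2d (0.997), Gm11149 (0.995) and Hk2 (0.994). For Sgca they were Hist1h2bc (0.996), Thap3 (0.990) and Mall (0.987), and for Sgce Drg1 (0.999), Dscc1 (0.998) and Rad1 (0.998). With 6 points and a search over this many genes, these values carry no test.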

How the data were processed

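RNA-Seq libraries of diaphragm muscle at E14.75 were grouped by their labels. The authors deposited RPKM per Ensembl gene, with no scaling between libraries beyond depth, and another column, deposited beside it, marks genes at the floor of 1 read with 1. The submitters' processing notes name STAR and mm9, without versions, and the program and gene lengths behind the RPKM are not given in the sources used here. Depth was computed from the floors and annotated lengths of 223 microRNA genes (81.2% yielded 1 value within 1e-4), and intervals from it cover counting error only. Of 23076 entries 3 hold no value. Symbols and positions came from GENCODE M21 on GRCm38, joined by identifier (21583 matched, 1490 did not), and promoters from RefSeq on GRCm38.p6. No coordinates were converted.

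Where RPKM averaged 0.5 or more in the 4 libraries compared, genes were tested as log2(RPKM + 0.5), a scale that understates changes of low genes, with limma 3.58.1 (lmFit, eBayes with a trend, R 4.3.3), Benjamini-Hochberg adjustment over all genes tested and a threshold of 0.05. Ratios were compared by exact permutation tests. The procedure was tested on simulated data. Python 3.11.15 with pandas 2.3.3, numpy 2.4.6, matplotlib 3.10.9 and scipy 1.17.1 was used for tables and plots. The members and lists were chosen with earlier results of these data known. Genes named are the members, Sspn, Sntb1, Drp2 and Lama2, the highest and lowest log2 difference of each list in each comparison (Lama2 and Egflam are the least negative where all fell below 0), the 2 muscle markers with the highest mean, and the 3 genes most like Dmd, Utrn, Sgca and Sgce. Results for some genes of the lists are not reported here. Cav3 was also described in comparisons where the rule did not name it, after its values were seen. Each of these settings was changed in turn: the pseudocount (0.1, 1), the filter (none, or an average RPKM of 1), the scaling (quantile, or median ratio), the trend in eBayes, the libraries fitted (all 6, or all but 1 of a comparison) and a replicate block.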

Additional observations from a re-analysis of the deposited data

How the results depend on the processing

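Without leaving out a library, 0 of the 8 members passed the threshold in any comparison under any alternative. Leaving out 1 library changed this for the Wnt1-Ribotag libraries alone. Against wild-type muscle between 0 and 3 members then passed, Dag1, Sgca and Sgcd without Wnt1-Ribotag 1 (adjusted p from limma of 0.00874, 0.0432 and 0.0422) and Sgcb and Sgce without Wnt1-Ribotag 2 (0.00678 and 0.00553). Against the mutant between 0 and 1 passed, Sgce without Wnt1-Ribotag 2 (0.0134). In those fits the lone Wnt1-Ribotag library is assumed to vary like the other group, and many more of all genes were called, 4482 without Wnt1-Ribotag 1 and 5965 without Wnt1-Ribotag 2 against wild-type (1 with all libraries), and 2538 and 3672 against mutant muscle (171 with all libraries). Leaving out any library of the comparison gave between 26 and 5965 calls against wild-type and between 112 and 3672 against mutant muscle. In mutant vs. wild-type muscle 24 genes were called, between 10 and 106 with a library left out, and 0 without the filter or with all 6 libraries in a fit. Against wild-type muscle the Wnt1-Ribotag libraries gave 0 calls without the filter, 2 with median-ratio scaling and 138 with all 6 libraries. Against the mutant they gave 112, 83 with quantile normalization and 679 in the same way.

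Replicate numbers in the labels are shared by the mutant and Wnt1-Ribotag libraries only. With the replicate block, 842 genes and 0 members were called between them, and of the further subunits Cav3 (adjusted p = 0.0369) and Sspn (0.0362) passed. Cav3 also passed with all 6 libraries in a fit (0.0365). Deviations of same-numbered libraries had a correlation of 0.168 over 14325 genes, and with 2 pairs the libraries share only a number. No block was possible with the wild-type libraries, whose numbers are 5 and 6.

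With all libraries kept, the log2 difference changed sign for Lama2 in mutant vs. wild-type muscle (0.10 with median-ratio scaling, 0.12 with quantile normalization), for Sspn there (0.0026 with quantile normalization) and for Dmd in Wnt1-Ribotag vs. mutant muscle (-1.4e-05 with a pseudocount of 1, -0.031 with median-ratio scaling, -0.21 with quantile normalization), all of them near 0 in the first place, and the cause was not tested. Leaving out a library turned the sign of further differences, of which Dag1 in mutant vs. wild-type (-0.39) and Sgcd in Wnt1-Ribotag vs. mutant muscle (-0.36) were as large as that of Dmd in mutant vs. wild-type muscle (0.36). The log2 ratio of Sgce over Sgca in mutant vs. wild-type muscle ran from -0.64 to 0.13. In mutant vs. wild-type muscle the log2 difference then ran from -0.21 to 0.30 for Sgcb, -0.058 to 0.36 for Sgcd, -0.87 to 0.084 for Dag1, -0.35 to 0.32 for Lama2, -0.41 to 0.50 for Sntb1 and -0.53 to 0.30 for Sspn. In Wnt1-Ribotag vs. wild-type muscle it ran from -0.60 to 0.17 for Sgcd and -0.50 to 0.10 for Egflam. In Wnt1-Ribotag vs. mutant muscle it ran from -0.66 to 0.29 for Dag1, -0.32 to 0.23 for Sgca, -0.36 to 0.0077 for Dtna, -0.15 to 0.15 for Dmd, -0.12 to 0.45 for Utrn, -0.75 to 0.02 for Sgcd and -0.73 to 0.19 for Sntb1. Dtna and Dmd stayed above 0 in mutant vs. wild-type muscle under each alternative run.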
